A study of Sus scrofa with 26 samples.

Results

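Members of the HSP70 and HSP110 family of chaperones were examined in the subcutaneous adipose tissue (SCAT) of pigs: HSPA2, HSPA4, HSPA4L, HSPA5, HSPA8, HSPA9, HSPA12A, HSPA13, HSPA14 and HSPH1, 10 genes in all. HSPA1A, HSPA1B and HSPA6 were not among these 10 genes and were not examined. A probe belonged to a member if the array annotation named that gene through the gene name, an accession or the description column. Every such probe was kept. This gave 26 probes among the 60305 different probes on the array that were not controls. The 26 probes held 23 different sequences, because 3 pairs were the same 60-base oligonucleotide under separate probe names. Of the 26, 25 were well above background on at least 8 arrays and entered the tests among 44703 probes in all, and the exception was HSPH1 probe 4, well above background on 2 arrays.

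SCAT came from 26 castrated pigs of 3 breeds, each hybridised to a one-colour array. They were Large White (LW), Creole, a local breed, and their F1 cross, and they were slaughtered in thermoneutral conditions (TN, 24 °C in the labels) or after heat stress (HS). The labels give HS as 30 °C, whereas the series text gives 32 °C for 5 days. There were 3 Creole TN, 5 Creole HS, 4 F1 TN, 5 F1 HS, 4 LW TN and 5 LW HS pigs. All TN pigs were slaughtered before the temperature was raised, so temperature, slaughter day and age cannot be told apart. The study also reports a lower feed intake in the heat, which cannot be told apart from temperature either. Per the study's methods some pigs were littermates, and pigs of a breed shared pens that were each slaughtered at a single temperature. The labels give neither litter nor pen, so the p-values treat related pigs and penmates as independent.

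HSP70 proteins bind exposed hydrophobic stretches of other proteins and let them go in a cycle driven by ATP. J-domain proteins start the cycle, and nucleotide exchange factors, which include the HSP110 proteins of this family, end it by releasing ADP. In the cytosol and nucleus the constitutive HSPA8 does most of this work, HSPA5 (BiP) does it in the endoplasmic reticulum (ER), and HSPA9 (mortalin) in mitochondria, where it also pulls in imported proteins.

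The probes behind the results are shown first, each written 5′ to 3′, because several genes rest on 1 oligonucleotide or on probes that did not move together. Capitals mark bases that 2 probes of a gene share, and of probes that may lie outside the coding region only the first 30 bases are given. HSPA14, whose probes share no stretch, carried the clearest temperature difference:
HSPA14 probe 1, first 30 bases: gtccagagcaagatttgaacttctctgttc
HSPA14 probe 2: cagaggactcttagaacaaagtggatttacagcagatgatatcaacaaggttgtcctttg
HSPA12A probe: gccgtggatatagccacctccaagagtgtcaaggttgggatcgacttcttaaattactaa
HSPA13 probes 1 and 2, identical, first 30 bases: CTTCAGCAACATCAGAACATTTCAGCTTCT
HSPA13 probe 3: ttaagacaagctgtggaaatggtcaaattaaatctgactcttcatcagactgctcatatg
HSPA4 probe 1, first 30 bases: gcagacaagcatttatccagattgcgtttg
HSPA4 probe 2, first 30 bases: taaagatttgtatcctggcctgcttattca
HSPA2 probes 1 and 2, identical, first 30 bases: TTGAGGGAAGTGAACATGGTAGTAATGTTA
HSPA2 probe 3: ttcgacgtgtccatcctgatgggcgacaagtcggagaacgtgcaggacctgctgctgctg
HSPA9 probes 1 and 2, first 30 of 50 shared bases: TCTGTCCTTGATGATTGTTCTTTTGGATCC
HSPA9 probe 3, first 30 bases: atgcatagtcccgccttgaaacaattctaa
HSPA9 probe 4, first 30 bases: gaagactgtaggtttttgaaataaagcttt

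Probes of a gene are numbered by falling mean level, and probe 1 stood for its gene wherever 1 value per gene was needed. Levels are log2 intensities after quantile normalisation, and they compare arrays at a given probe, not probes or genes with each other. The identical oligonucleotides gave the error between spots of the same array, not the error between arrays. Over the 26 arrays, the difference between the 2 identical HSPA5 spots had an SD of 0.05, against 0.11 for HSPA2 and 0.16 for HSPA13.

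The arrays had 41314 to 46185 probes well above background, and each of the 5 slides held both temperatures. All 9 adipocyte markers were well above background on all 26 arrays, including ADIPOQ, PLIN1 and LEP. Skeletal muscle markers (10 of 11 measured) summed to between 32994 and 405482 intensity units per array, from 32994 to 126021 in TN and from 38272 to 405482 in HS, and from 38272 to 405482 in Creole and 32994 to 227266 in LW pigs. None of them passed the test for temperature (median difference 0.56) or for LW minus Creole (median -0.88). Of the adipocyte markers 1 was higher in HS, and 1 was lower in LW than in Creole pigs, with a median difference of -0.11 for LW minus Creole. Of the 7 endothelial markers, all measured, 1 was lower in HS (adjusted p = 0.0254, median difference of the list -0.03) and 1 was higher in LW than in Creole pigs (adjusted p = 0.00136, median 0.08). Of the 7 measured red blood cell markers of a list of 10, 2 were lower in HS, and their mean log2 level relative to the average array averaged 0.14 in the 11 TN pigs (SD 0.11) and -0.10 in the 15 HS pigs (SD 0.19). With that level as a covariate limma called no member probe for temperature, and 334 probes in all against 5447 without it. Of the 7 fibroblast and matrix markers, all measured, 5 were higher in HS (median difference 0.31) and 3 were higher in LW than in Creole pigs (median 0.34), the opposite direction to the members called in both comparisons. Their summed intensity ran from 324551 to 816155 in TN and from 552309 to 974062 in HS, and the part of this list in the results was not tested.

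None of the 10 genes passed the test as higher in HS. HSPA14, HSPA13 and HSPA12A were lower, by 1.21-fold, 1.19-fold and 1.41-fold, while HSPA8, HSPA5, HSPA9 and HSPH1 did not pass the test. HSP70 genes outside the 10, such as HSPA1A, were not examined. In the limma fit adjusted for breed, 4 of the 25 tested probes had an adjusted p below 0.05, that is 3 of the 10 genes, against 12.2% of all tested probes and 12.6% of all 10325 genes. All 4 were lower in HS, where 7.02% of all probes and 7.65% of all genes were lower. Whether these shares differ from those over all genes was not tested. With slide as a fixed block the calls were 3 probes and 2 genes, as they were with no filter on dim probes, and HSPA12A was the gene lost (adjusted p = 0.0573 and 0.0535). The median difference, HS minus TN, was -0.15 over the member probes and 0.00 over all probes, and 22 of the 25 member probes were lower in HS.

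**Figure D1:**
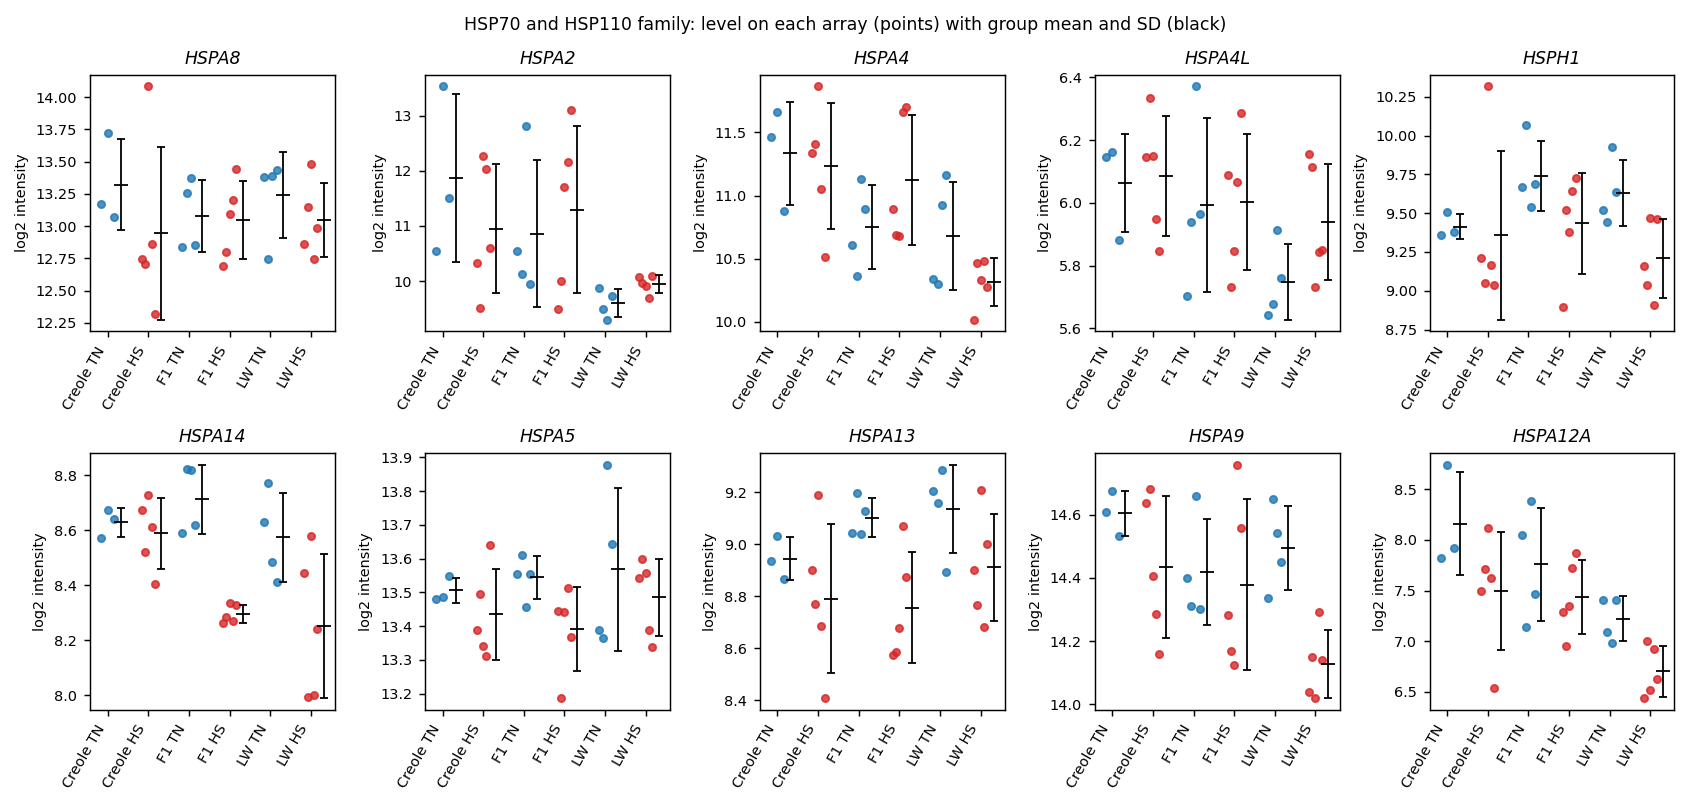
Level of each of the 10 genes on each array (points, log2 intensity, blue for TN and red for HS) in the 6 groups, with group mean and SD in black; each panel has its own scale. The 5 F1 HS arrays lie below the 4 F1 TN arrays for HSPA14, and the 9 LW arrays lie between 9.30 and 10.09 for HSPA2 while Creole and F1 arrays reach 13.53 and 13.11.

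HSPA14 is an HSP70 that sits on the ribosome with a J-domain partner and helps nascent chains to fold. In F1 pigs, probe 1 read 8.59, 8.82, 8.82 and 8.62 in TN and 8.26, 8.29, 8.33, 8.27 and 8.33 in HS. In LW pigs the TN arrays read 8.63, 8.77, 8.48 and 8.41, and the HS arrays 8.44, 7.99, 8.58, 8.0 and 8.24. In Creole pigs they read 8.57, 8.68 and 8.64 in TN and 8.67, 8.52, 8.73, 8.61 and 8.41 in HS. Temperatures thus did not overlap in F1, overlapped in LW and were mixed in Creole pigs.

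Over the 3 breeds HSPA14 was lower in HS by 0.27 ± 0.07 (log2, standard error) at probe 1, with adjusted p = 0.0105 in limma. Probe 2, which covers another stretch of the transcript, gave a fall of 0.28 ± 0.07 (adjusted p = 0.0086). At each probe, 12 of 15 HS arrays were below the TN mean of their breed, and 9 of 15 lay below every TN array at probe 1 and 6 of 15 at probe 2. The call was kept in all 26 fits that left out 1 array (adjusted p from 0.00495 to 0.0244). With the red blood cell score as a covariate the call was lost (-0.25, adjusted p = 0.185). Within slides, without adjustment for breed, the probe 1 difference was negative on all 5, from -0.40 to -0.08, and the probe 2 difference was negative on 4 and 0.04 on the other. The -0.08 and the 0.04 came from slide 5, which held 2 LW arrays in TN and 1 Creole and 1 F1 array in HS, so breed and temperature cannot be told apart there.

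HSPA13 is an HSP70 of the ER and microsomes that lacks the usual peptide-binding domain. Its probe 1 read 8.94, 9.03 and 8.87 in Creole TN and 8.90, 8.77, 9.19, 8.68 and 8.41 in Creole HS pigs. In F1 it read 9.04, 9.20, 9.04 and 9.13 in TN and 8.57, 8.59, 8.68, 9.07 and 8.87 in HS. In LW it read 9.21, 9.16, 9.29 and 8.89 in TN and 8.90, 8.77, 9.21, 8.68 and 9.0 in HS. The HS arrays reached lower in each breed, 8 of 15 lay below every TN array, and the temperatures overlapped in each breed.

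The HSPA13 difference was -0.25 ± 0.08 at probe 1 (adjusted p = 0.0363, limma), lower in 13 of 15 HS arrays. The identical probe 2 gave -0.17 ± 0.10 (adjusted p = 0.266) and probe 3 gave -0.13 ± 0.07 (adjusted p = 0.259). The call therefore rested on 1 of 2 spots of the same oligonucleotide, and on the mean of the 3 probes the difference was -0.18 (adjusted p = 0.108). It passed in 12 of the 26 fits without 1 array, with adjusted p up to 0.0631.

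HSPA12A is a distant relative with a divergent ATPase domain, and here it had 1 probe. In Creole pigs it read 7.82, 8.75 and 7.92 in TN and 7.5, 7.71, 8.12, 7.62 and 6.54 in HS. In F1 it read 8.05, 7.14, 8.39 and 7.46 in TN and 7.28, 6.95, 7.35, 7.73 and 7.87 in HS. In LW it read 7.41, 7.09, 6.98 and 7.41 in TN and 6.44, 7.0, 6.52, 6.92 and 6.63 in HS. Of the 15 HS arrays, 14 were below the TN mean of their breed.

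The difference for HSPA12A was -0.49 ± 0.16 (95% confidence interval -0.82 to -0.17; adjusted p = 0.0404, limma), the widest of the called members in size. It passed in 14 of the 26 fits without 1 array and was -0.41 (adjusted p = 0.0876) without Creole TN replicate 2, the highest array. Without a breed term it was -0.46 with adjusted p = 0.169. Within slides, without adjustment for breed, it ranged from -1.25 to 0.03, with 0.03 on slide 4 and 0.01 on slide 5. Slide 5 again set LW TN against Creole and F1 HS arrays, so breed and temperature cannot be told apart there. On that slide LW minus Creole was 0.65 for HSPA12A, opposite in sign to the -0.85 over all arrays.

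**Figure D2:**
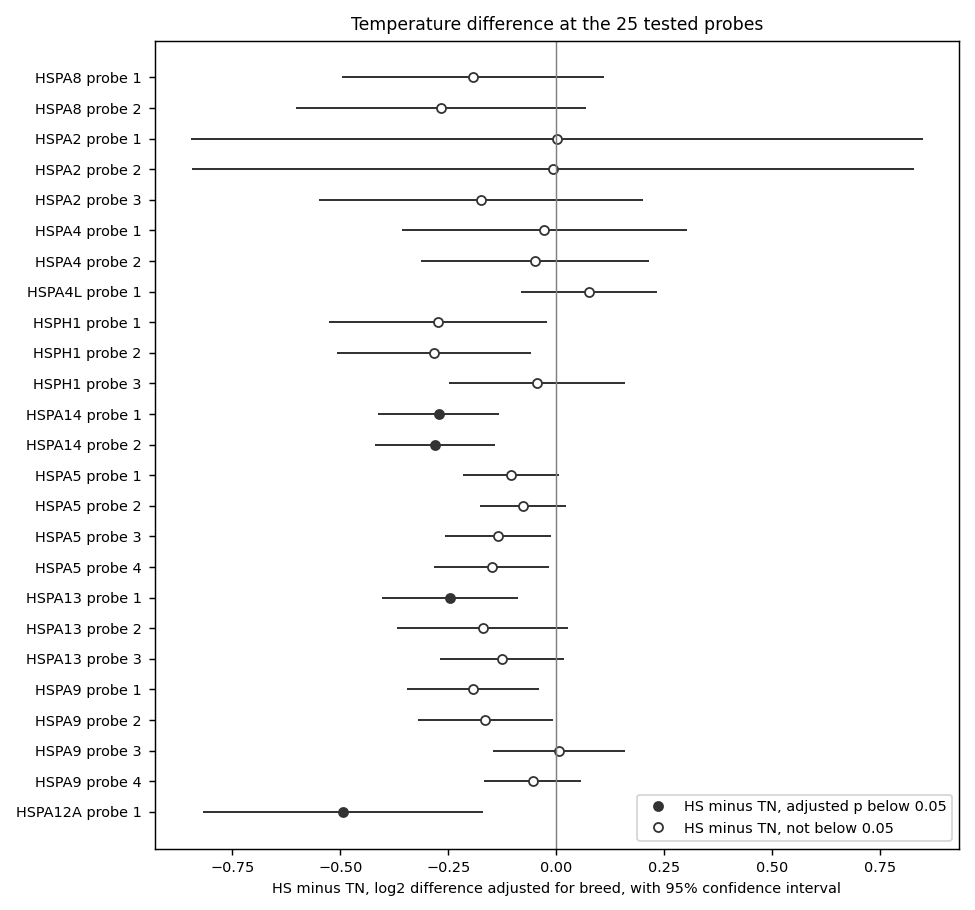
HS minus TN at the 25 tested probes (log2 difference adjusted for breed, points, with 95% confidence interval as lines); filled points have an adjusted p below 0.05. The 4 filled points are both HSPA14 probes, HSPA13 probe 1 and HSPA12A, all left of 0.

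Among the cytosolic members, HSPA8 read between 12.74 and 13.72 in TN (median 13.26, n = 11) and between 12.32 and 14.09 in HS (median 12.86, n = 15). Its 2 probes gave -0.19 ± 0.15 (adjusted p = 0.432) and -0.27 ± 0.16 (adjusted p = 0.305), and their levels moved together over the arrays with r = 0.97. The 95% interval at probe 1 ran from -0.50 to 0.11, and it held no rise above 0.11. On 2 probes that the annotation left unnamed, but that share 60 and 53 bases with HSPA8 probe 1, the differences were -0.25 (adjusted p = 0.286) and -0.18 (adjusted p = 0.438).

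HSPH1 (HSP105), an HSP110 nucleotide exchange factor known to be induced by heat, read 9.36, 9.50 and 9.38 in Creole TN and 9.21, 9.05, 10.32, 9.16 and 9.04 in Creole HS. In F1 it read 9.67, 10.07, 9.54 and 9.69 in TN and 8.90, 9.52, 9.38, 9.64 and 9.73 in HS, and in LW 9.52, 9.44, 9.93 and 9.64 in TN and 9.16, 9.04, 9.47, 8.91 and 9.47 in HS. Of the 15 HS arrays, 14 were below the TN mean of their breed, and the exception, Creole HS replicate 3, was the highest of all 26 arrays. The same array was the highest for HSPA8 (14.09) and for HSPA4 (11.87). It also had the highest skeletal muscle score of the 26, a mean log2 level of the markers relative to the average array of 2.43 where the next array had 1.69, and the highest adipocyte score (0.42, next 0.23). Within groups, HSPH1 had r = 0.49 with the skeletal muscle score (adjusted p = 0.084 over 70 relations, permutation test). The part of the adipocyte markers was not tested.

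At HSPH1 probe 1 the difference was -0.27 ± 0.12 with adjusted p = 0.149, and without Creole HS replicate 3 it was -0.35 with adjusted p = 0.00966. With the skeletal muscle score as a covariate and all 26 arrays it was -0.33 (adjusted p = 0.0631). Probe 2 gave -0.28 ± 0.11 (adjusted p = 0.0908), whereas probe 3, which correlated less with probe 1 (r = 0.66 against 0.93 for probe 2), gave -0.04 ± 0.10 (adjusted p = 0.816). HSPH1 probe 4 was not tested.

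The other cytosolic members showed no temperature difference that passed. HSPA4 (APG-2), the partner exchange factor, differed by -0.03 ± 0.16 at probe 1 (adjusted p = 0.936), HSPA4L (APG-1) by 0.08 ± 0.08 (adjusted p = 0.56) and HSPA2, best known for its role in sperm formation, by 0.00 ± 0.41 (adjusted p = 0.998). The HSPA2 interval was wide, from -0.85 to 0.85.

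In the ER, HSPA5 read 13.36 to 13.88 in TN (median 13.55, n = 11) and 13.19 to 13.64 in HS (median 13.44, n = 15), a range of 0.69 over all 26 arrays. All 4 probes were lower in HS, by 0.10, 0.08, 0.13 and 0.15 in the order of their numbers, with adjusted p from 0.135 to 0.324. In mitochondria, HSPA9 probe 1 read 14.30 to 14.67 in TN (median 14.53) and 14.02 to 14.76 in HS (median 14.28), and 10 of 15 HS arrays lay below every TN array. In LW pigs the TN arrays read 14.34, 14.65, 14.54 and 14.45 and the HS arrays 14.04, 14.15, 14.02, 14.29 and 14.14, with no overlap. The difference was -0.19 ± 0.07 (adjusted p = 0.0887) and at the overlapping probe 2 -0.16 ± 0.08 (adjusted p = 0.162). Without F1 HS replicate 4 it was -0.23 at probe 1 (adjusted p = 0.0229). Scaling each array to its 75th percentile instead took both genes past the threshold, HSPA5 at -0.20 (adjusted p = 0.012) and HSPA9 at -0.31 (adjusted p = 0.029).

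HSPA9 probes 3 and 4 did not follow probes 1 and 2. Probe 4 was well above background on 13 arrays. Probe 3 had 0 reading frames free of stop codons as printed and 2 on its opposite strand. Whether it reads the opposite strand of HSPA9 was not tested. The levels of probe 1 correlated at r = 0.96 with probe 2 over the 26 arrays, but at -0.10 with probe 3 and -0.12 with probe 4. Their temperature differences were 0.01 ± 0.07 and -0.05 ± 0.05 (adjusted p = 0.966 and 0.563).

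Within single breeds no member probe passed in limma. In Creole pigs 0 of 25 were called (0.0716% of all probes; 1 member probe had an unadjusted p below 0.05), in F1 0 of 25 (0.421%; 3 unadjusted) and in LW 0 of 25 (1.50%; 5 unadjusted). HSPA14 differed by -0.42 ± 0.11 in F1 (adjusted p = 0.0739), by -0.32 ± 0.11 in LW (adjusted p = 0.122) and by -0.04 ± 0.12 in Creole pigs (adjusted p = 0.947). HSPA9 differed by -0.37 ± 0.12 in LW (adjusted p = 0.123), -0.04 ± 0.12 in F1 and -0.17 ± 0.13 in Creole pigs. No difference between breeds in the temperature effect passed: the interaction test called 0 of 25 member probes, none with an unadjusted p below 0.05, and 0.00224% of all probes. For HSPA14 its unadjusted p was 0.0684 and its adjusted p 0.897.

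**Figure D3:**
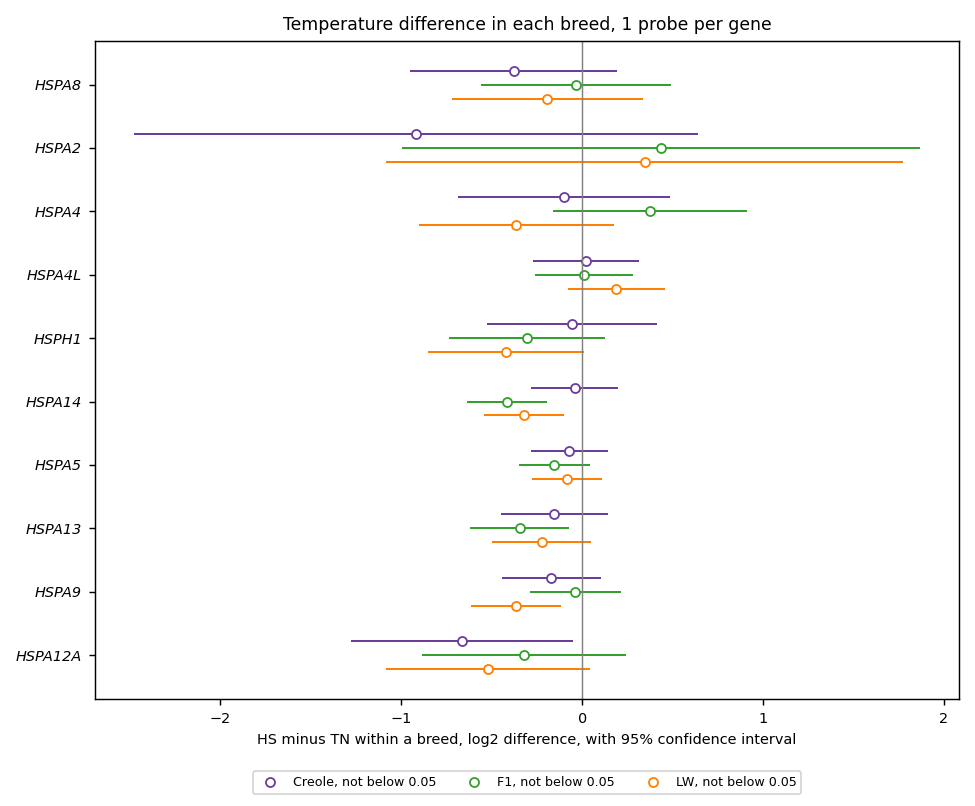
HS minus TN within Creole, F1 and LW pigs for the 10 genes (log2 difference, points, with 95% confidence interval as lines); no point has an adjusted p below 0.05. HSPA14 lies at -0.42 in F1, -0.32 in LW and -0.04 in Creole pigs.

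HSPA4, HSPA2 and HSPA12A were lower in LW than in Creole pigs, by 1.74-fold, 2.83-fold and 1.80-fold, and HSPA12A alone was among the called genes of both comparisons. In limma, 5 of 25 member probes passed for LW minus Creole (14.3% of all probes), that is 3 of 10 genes (15.3% of all genes): both HSPA4 probes, HSPA2 probes 1 and 2, and HSPA12A. All 5 were lower in LW (7.42% of all probes), and none was higher (6.89%). The median difference over the member probes was -0.03, and 0.00 over all probes. The test of any breed difference called 3 of 25 (11.3%), both HSPA4 probes and HSPA12A.

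HSPA4 probe 2 read 8.56, 8.53 and 8.14 in Creole TN and 8.70, 8.41, 8.91, 8.24 and 7.61 in Creole HS. In LW it read 7.44, 7.46, 7.74 and 8.16 in TN and 7.24, 7.24, 7.62, 7.53 and 7.42 in HS. In F1 it read 8.07, 7.91, 8.07 and 8.01 in TN and 8.15, 7.87, 7.72, 8.57 and 8.66 in HS. Of the 8 Creole arrays, 6 were above every LW array, and the F1 arrays lay across both.

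LW minus Creole was -0.85 ± 0.16 at HSPA4 probe 2 (adjusted p = 0.00128) and -0.80 ± 0.20 at probe 1 (adjusted p = 0.00885), and the probe 1 difference passed in all 26 fits without 1 array (-0.90 to -0.71). The 2 probes, which share no stretch, correlated at r = 0.93. On the 4 slides that held both breeds, the probe 1 difference was -1.19, -1.28, -0.98 and 0.53. The -1.28 and the 0.53 each rested on 1 Creole array, against 3 and 2 LW arrays, and the 0.53 set a Creole HS array against LW TN arrays. F1 pigs were above LW by 0.57 ± 0.15 at probe 2 (adjusted p = 0.0348) and by 0.48 ± 0.19 at probe 1 (adjusted p = 0.144). With slide as a fixed block neither probe passed for F1 minus LW. F1 pigs were below Creole pigs by 0.28 ± 0.16 and 0.32 ± 0.20, with adjusted p of 0.617 and 0.664.

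HSPA12A was 7.75 ± 0.62 (SD, n = 8) in Creole, 7.58 ± 0.46 (n = 9) in F1 and 6.93 ± 0.35 (n = 9) in LW pigs. LW was lower than Creole by 0.85 ± 0.19 (adjusted p = 0.00532) and F1 higher than LW by 0.65 ± 0.19 (adjusted p = 0.0472), while F1 minus Creole was -0.20 ± 0.19 (adjusted p = 0.812). Of the 8 Creole arrays 7 were above every LW array, and of the 9 F1 arrays 5. On slides 2, 3, 4 and 5, LW minus Creole was -1.05, -1.8, -1.03 and 0.65, with 1 Creole array each on slides 3 and 5. The LW minus Creole call was kept in all 26 fits without 1 array, while the F1 minus LW call was kept in 6 of them, with adjusted p up to 0.0992 without F1 TN replicate 3. With slide as a fixed block F1 minus LW was 0.68 for HSPA12A (adjusted p = 0.0849).

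HSPA2 set itself apart by its spread. Probe 1 read 10.55, 13.53 and 11.52 in Creole TN and 10.33, 9.51, 12.27, 12.03 and 10.60 in Creole HS. In F1 it read 10.54, 10.13, 12.82 and 9.94 in TN and 9.49, 10.01, 11.71, 12.16 and 13.11 in HS. In LW it read 9.88, 9.49, 9.30 and 9.73 in TN and 10.08, 9.97, 9.90, 9.69 and 10.09 in HS. LW arrays were the least variable, with an SD of 0.27 (n = 9) against 1.29 in Creole (n = 8) and 1.36 in F1 pigs (n = 9), and 7 of 8 Creole and 6 of 9 F1 arrays lay above all LW arrays.

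The LW minus Creole difference for HSPA2 was -1.5 ± 0.50 (adjusted p = 0.0463) at probe 1 and -1.46 ± 0.50 (adjusted p = 0.0483) at the identical probe 2, close to the threshold. Probe 3, which lies in another stretch of the gene, gave -0.52 ± 0.22 (adjusted p = 0.12), and its levels correlated with probe 1 at r = 0.77. Without Creole TN replicate 2, the highest array, the probe 1 difference was -1.14 (adjusted p = 0.119), and it passed in 11 of the 26 fits without 1 array. F1 pigs were above LW by 1.31 ± 0.49 (adjusted p = 0.12).

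Of the remaining members, HSPA14 was lower in LW than in Creole pigs by 0.23 ± 0.08 at probe 1 (adjusted p = 0.0673; below the threshold without Creole TN replicate 1, LW HS replicate 3 or LW TN replicate 2, at 0.0464, 0.0326 and 0.0414), HSPA4L by 0.22 ± 0.09 (adjusted p = 0.12) and HSPA9 by 0.22 ± 0.09 at probe 1 (adjusted p = 0.105, and 0.0496 without Creole HS replicate 5). None of these passed over all 26 arrays. HSPA9 probes 3 and 4, which did not follow probes 1 and 2, went the other way, at 0.27 ± 0.09 (adjusted p = 0.0516) and 0.19 ± 0.07 (adjusted p = 0.0582). They may not read the HSPA9 transcript, and this was not tested. HSPA8, HSPA5 and HSPH1 differed between LW and Creole by 0.03 ± 0.18, 0.05 ± 0.07 and 0.00 ± 0.15, with 95% intervals from -0.34 to 0.40, from -0.08 to 0.19 and from -0.31 to 0.31. For F1 minus Creole limma called 0 of 25 member probes (0.262% of all probes; 1 had an unadjusted p below 0.05), and for F1 minus LW it called 2 of 25 (4.22%), HSPA4 probe 2 and HSPA12A.

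**Figure D4:**
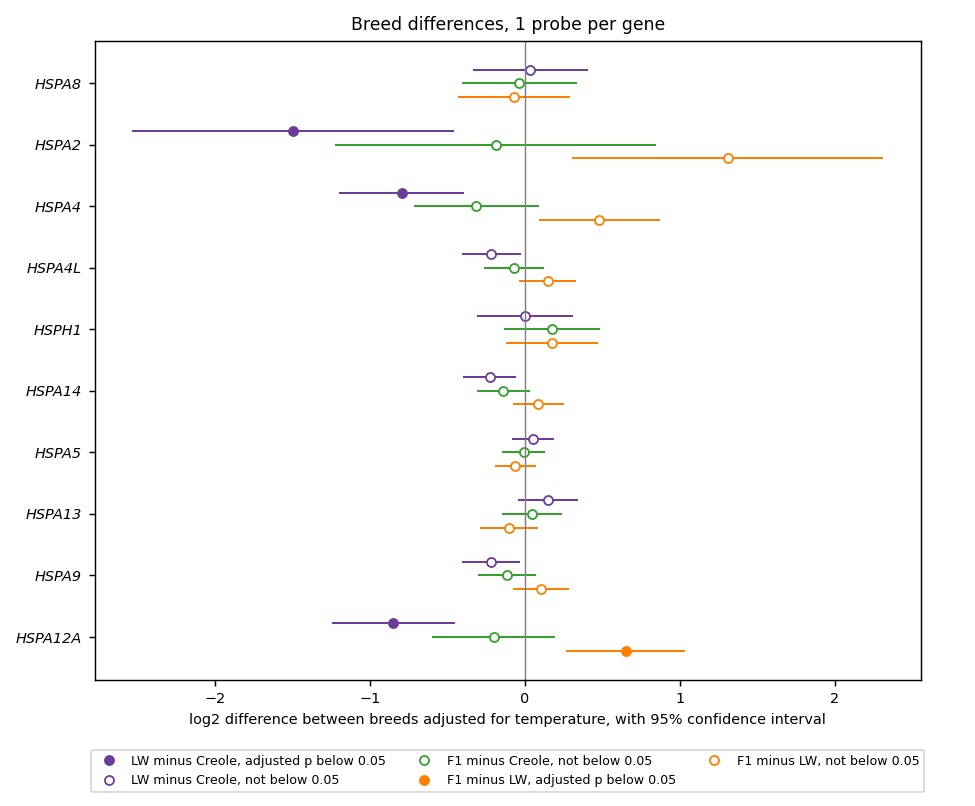
Differences between breeds for the 10 genes (log2 difference adjusted for temperature, points, with 95% confidence interval as lines); filled points have an adjusted p below 0.05. LW minus Creole is filled for HSPA2 (-1.5), HSPA4 (-0.80) and HSPA12A (-0.85), and F1 minus LW for HSPA12A (0.65), which did not pass with slide as a fixed block.

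Within groups, a minority of the pairs of members varied together from pig to pig. After each array was set against the mean of its group, the 45 pairs of members had a median Pearson r of 0.33 over the 26 arrays, where all pairs of 10306 genes had a median of 0.00 and 11.8% of pairs reached 0.33. In two-sided permutation tests (100000 permutations, Benjamini-Hochberg over 45 pairs), 15 pairs had an adjusted p below 0.05, all with positive r, and 13 of them passed with Spearman's rho as well. None of the 15 involved HSPA5, whose r with the other members lay between -0.30 and 0.18. HSPA14 was in 1 of them, with HSPA13, and HSPH1 in 2, with HSPA8 and HSPA13.

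HSPA8 and HSPH1, chaperone and exchange factor of the cytosol, had the highest r, 0.79 (p = 2e-05, adjusted p = 0.00045, rho = 0.67, adjusted p = 0.00214). Leaving out the 2 arrays farthest from the HSPA8 median lowered it to 0.60. HSPA13 varied with both, at r = 0.75 with HSPH1 (p = 1e-05, the smallest the permutations can give; 0.65 without the 2 farthest arrays) and r = 0.68 with HSPA8 (0.46), and with HSPA14 at r = 0.60 (0.54). HSPA13 and HSPA14 were also both lower in HS.

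HSPA4 was related to HSPA12A (r = 0.73, rho = 0.70; 0.62 without the 2 farthest arrays), to HSPA9 (r = 0.67, rho = 0.69; 0.68), to HSPA8 (r = 0.65, rho = 0.61; 0.50) and to HSPA4L (r = 0.63, rho = 0.65; 0.60). HSPA8 was related to HSPA12A as well (r = 0.59, rho = 0.48; 0.39). HSPA2 was related to HSPA12A (r = 0.65, rho = 0.67; 0.57) and to HSPA8 (r = 0.63, rho = 0.66; 0.60). HSPA4 and HSPA14 showed no relation that passed (r = -0.09, adjusted p = 0.871), nor did HSPA9 and HSPH1 (r = 0.02, adjusted p = 0.974).

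Marker lists moved with some members. With the skeletal muscle score as a covariate, an alternative added after the data were seen, the HS minus TN calls were 4 probes, as without it, and the LW minus Creole calls 3 in place of 5. No fit had the endothelial, adipocyte or fibroblast and matrix lists as a covariate, and their part in the results was not tested. Against the mean level of each marker list, set against group means in the same way, 4 of 70 relations had an adjusted p below 0.05: HSPA9 with endothelial markers (r = -0.65, adjusted p = 0.021), HSPA4 and HSPA8 with adipocyte markers (r = 0.60 and 0.59, adjusted p = 0.0418 for both) and HSPA13 with skeletal muscle markers (r = 0.57, adjusted p = 0.0418). Spearman's rho for these was -0.55, 0.57, 0.51 and 0.46, each with an adjusted p of 0.146 or 0.152, and without the 2 farthest arrays r was -0.52, 0.47, 0.30 and 0.47. Next came HSPA12A with fibroblast and matrix markers (r = -0.52, rho = -0.47) and HSPA14 with skeletal muscle markers (r = 0.52, rho = 0.45). HSPA12A and HSPA2 with adipocyte markers were alike (r = 0.52 and 0.51, rho = 0.47 and 0.48). Each of these had an adjusted p of 0.0664 for r in the permutation test. In bulk tissue, fewer cells of a type and less RNA per cell cannot be told apart.

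**Figure D5:**
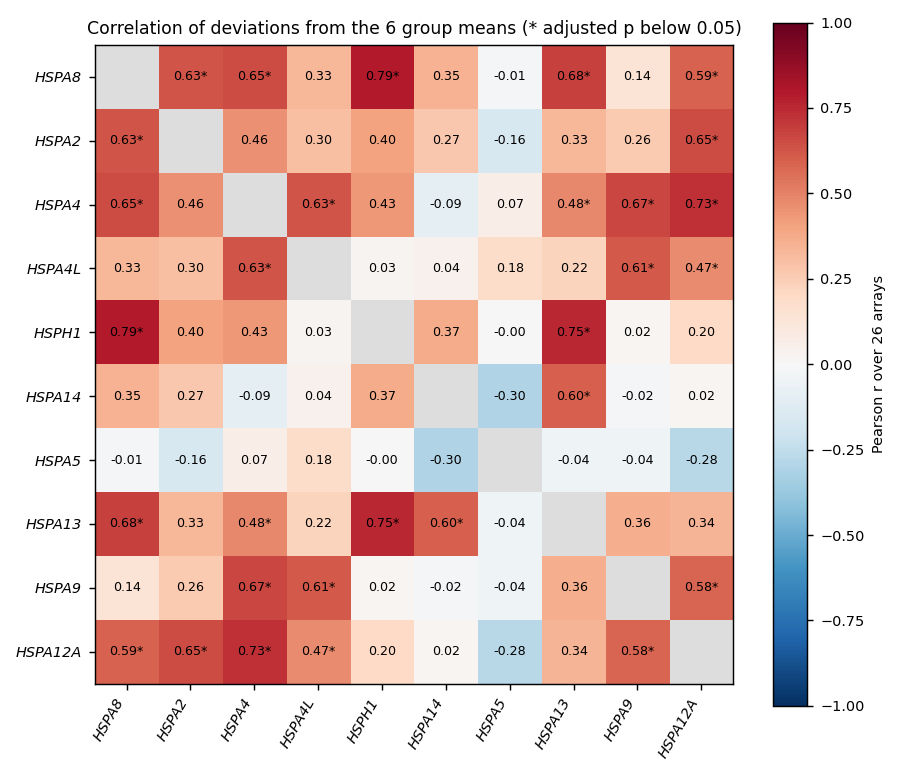
Pearson r between members over 26 arrays, each array set against its group mean (colour and number; * adjusted p below 0.05 in a permutation test over 45 pairs). The HSPA5 row has no starred pair, and the highest value is 0.79 between HSPA8 and HSPH1.

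The named genes whose variation within groups was most like that of HSPA8 were HABP4 (r = 0.85), ABCE1 (0.84) and GCLC (0.82), over 26 arrays. For HSPH1 they were RBM24 (0.88), ADAMTS8 (0.87) and EIF4G2 (0.83), and for HSPA5 they were HNRNPUL1 (0.78), COPA (0.77) and PRLHR (0.76). For HSPA2, HSPA4, HSPA12A and HSPA14, looked up after their values were seen, the most alike genes were MMP9 (0.88), FAM120A (0.87), PIP5KL1 (0.91) and LPIN2 (0.77).

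Among the partners that run the HSP70 cycle, those that passed the temperature test were all lower in HS. Of 37 listed partners 30 were measured, and 6 of them were lower in HS and 0 higher, with a median difference of -0.05. The number called was 0 with the red blood cell score as a covariate, 3 without the breed term and 3 to 7 with 1 array left out. Over all genes 7.65% were lower in HS, and whether the partners differ from that share was not tested. The nucleotide exchange factors had 0 of 7 called, among them BAG3 at -0.15 ± 0.08 (adjusted p = 0.226) and HYOU1, an HSP110 relative of the ER, at -0.01 ± 0.05 (adjusted p = 0.954). Of 9 cytosolic J-domain partners 2 were lower, DNAJA2 at -0.27 ± 0.06 (adjusted p = 0.00419) and DNAJB6 at -0.19 ± 0.06 (adjusted p = 0.0332), while DNAJC2, the J-domain partner of HSPA14 on the ribosome, differed by -0.04 ± 0.05 (adjusted p = 0.645).

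In the ER 2 of 6 partners of HSPA5 were lower in HS, DNAJB9 at -0.31 ± 0.09 (adjusted p = 0.0258) and DNAJB11 at -0.23 ± 0.06 (adjusted p = 0.0154). In mitochondria 2 of 5 were lower, DNAJC19 at -0.21 ± 0.05 (adjusted p = 0.00807; 15 of 15 HS arrays) and TIMM44, which tethers HSPA9 to the import channel, at -0.29 ± 0.10 (adjusted p = 0.0458). HSF1, the heat shock transcription factor, differed by -0.01 ± 0.05 (adjusted p = 0.945), and 0 of 3 measured adaptors and regulators passed.

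Between LW and Creole pigs 6 of 30 partners were lower in LW and 1 was higher, where 8.60% of all genes were lower and 6.68% higher. Whether the shares differ was not tested. In mitochondria 3 of 5 were lower: TIMM44 at -0.49 ± 0.12 (adjusted p = 0.00703), DNAJA3 at -0.32 ± 0.10 (adjusted p = 0.0266) and DNAJC19 at -0.29 ± 0.06 (adjusted p = 0.00392). SIL1, the exchange factor of HSPA5, was lower by 0.30 ± 0.08 (adjusted p = 0.0131), STUB1, the ubiquitin ligase that works with HSPA8, by 0.27 ± 0.06 (adjusted p = 0.00776) and DNAJA2 by 0.23 ± 0.07 (adjusted p = 0.0293). DNAJC7 was the only partner higher in LW, by 0.50 ± 0.08 (adjusted p = 0.000269).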

How the data were processed

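Total RNA from SCAT was labelled with Cy3 and hybridised to one-colour Agilent arrays, 1 per pig. The deposited scanner files hold intensity values from Agilent Feature Extraction 10.10.1.1 (median, mean, background and processed signals). The authors' log2 table served as an alternative. It holds median signals that they read in with limma and quantile normalised with preprocessCore. Here, spots flagged as non-uniform were set missing, median intensities of non-control spots were quantile normalised and log2 transformed, and spots of a probe name were averaged. A probe had to be well above background on 8 or more arrays, and was fitted with limma 3.58.1 (R 4.3.3; lmFit, eBayes with intensity trend), on breed and temperature or on 6 group means, with Benjamini-Hochberg adjustment over all tested probes at 0.05. The study's random effects (pen, slaughter day, parents) are not in the labels and were left out. The partner and marker lists and the members were chosen with earlier results of these data known. Named genes were all members, the partners past the threshold for temperature and, for HSPA8, HSPA5 and HSPH1, the 3 genes with the highest r; other partners were named after their values were seen. Identities came from the array annotation and RefSeq gene names; probe positions in the genome were not used here. The fit was tested on simulated data. The number of arrays limits the precision. Alternatives were another scaling, background correction, the authors' table, stricter and no filters, no second factor, slide as a block, array weights, no trend, cell marker scores as covariates, and leaving out each array.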

Additional observations from a re-analysis of the deposited data

Results flagged for a closer look

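In 50 sets of 4 or 5 arrays (1 gene in 1 group), 2 arrays lay far from the others of their group, where chance would give about 1 in 20. HSPH1 in Creole HS replicate 3 was the highest of its group at 10.32, and the next array was at 9.21. HSPA8 in LW TN replicate 2 was the lowest at 12.74, and the next was at 13.38.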

How the results depend on the processing

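For HS minus TN, 8 member probes and 5 member genes were called with the 75th percentile scaling, and 0 of either with the red blood cell score as a covariate, a setting that took the calls over all probes from 5447 to 334; the cause was not tested. HSPA14 then stood at -0.25 (adjusted p = 0.185). Any breed gave 5 probes with slide as a fixed block. LW minus Creole gave 3 probes with no filter, without the temperature term, with the red blood cell score and with the skeletal muscle score. F1 minus LW gave 1 with no filter, without the temperature term and with either score, and 0 with slide as a fixed block. The HS difference in LW gave 1 probe with the skeletal muscle score, an alternative added after the data were seen. Partner genes called in HS were 3 without the breed term and 0 with the red blood cell score.

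Leaving out 1 array gave 2 to 6 probes and 1 to 4 genes for HS minus TN, 3 to 5 for any breed, 3 to 7 for LW minus Creole, 0 to 2 for F1 minus LW, 3 to 7 partners for HS minus TN and 5 to 8 for LW minus Creole. HS minus TN fell to 2 probes and 1 gene, HSPA14, without Creole TN replicate 2, F1 TN replicate 1 or 3, F1 HS replicate 1, 2 or 3, or LW TN replicate 1 or 2. LW minus Creole fell to 3 probes without Creole TN replicate 2, Creole HS replicate 3 or 4, F1 TN replicate 1, F1 HS replicate 3, LW TN replicate 1, 3 or 4, or LW HS replicate 5. Any breed rose to 5 without Creole HS replicate 2, and the partner count fell to 3 without Creole TN replicate 3 or LW TN replicate 2. F1 minus LW fell to 0 without F1 TN replicate 1 or 3, F1 HS replicate 4 or 5, LW TN replicate 1, or LW HS replicate 1, 2, 3 or 4, and to 1 in 11 further fits. The counts for HS minus TN in each breed, F1 minus Creole and the interaction were 0 to 0. HSPA13 alone was lost without F1 TN replicate 2 or 4, LW TN replicate 3, LW HS replicate 2 or 4, or Creole HS replicate 5 (adjusted p 0.0512 to 0.0631), and HSPA12A alone without Creole HS replicate 1, LW HS replicate 1 or 3, or LW TN replicate 4 (0.0516 to 0.0608). HSPA14, HSPA13 and HSPA12A (HS minus TN) and HSPA4, HSPA2 and HSPA12A (LW minus Creole) kept their sign under every alternative run. No paired analysis was possible because the labels give no replicate numbers that are shared between groups.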
